A study of Mus musculus with 2 samples.

Results

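The genes described here are 10 members of the pathway that displays peptides on MHC class I: H2-K1, H2-D1, B2m, Tap1, Tap2, Tapbp, Psmb8, Psmb9, Psmb10 and Nlrc5. They were chosen by symbol from the 31053 genes of the deposited tables, and all 10 were found. They were measured by single-cell RNA sequencing in leukemia cells from the spleens of mice. The leukemia, AE9a, is an acute myeloid leukemia made by a retroviral, GFP-marked truncated AML1-ETO fusion. In both groups the leukemia cells were Usp18+/f UBCER-Cre, that is, they carried 1 floxed allele of Usp18, a negative regulator of type I interferon signaling, and a tamoxifen-inducible Cre driven by a promoter active in nearly all cell types. Recipients were given 2 injections of oil (labelled Usp18+/f) or of tamoxifen (labelled Usp18+/Δ), and GFP+ Lin- c-Kit+ cells were taken by sorting on day 3 counted from the first injection. Each library pools 3 mice and each group is 1 library, so mice cannot be told apart, no test of a condition was possible, and every interval covers counting error only. The libraries are called by their treatment labels below, and tamoxifen, Cre activity and loss of the allele cannot be told apart in them.

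MHC class I molecules are made of a heavy chain, H2-K1 or H2-D1 in these cells, and the invariant light chain beta-2 microglobulin, which B2m encodes. Cytosolic proteins are cut into peptides by the proteasome, carried into the endoplasmic reticulum by the TAP transporter (Tap1 and Tap2) and loaded onto the heavy chain with the help of tapasin (Tapbp). In cells exposed to interferon, Psmb8, Psmb9 and Psmb10 replace the constitutive catalytic subunits Psmb5, Psmb6 and Psmb7 to form the immunoproteasome, and Nlrc5 is a transactivator of class I genes. All members are known interferon-responsive genes, and T cells recognize tumor cells through the peptides that this pathway presents.

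The promoters of 8 members were found in the RefSeq table (GRCm38.p6), from 250 bases before to 50 bases after the start. They are shown so that the levels of B2m, H2-D1, Tap1 and Psmb9 can be read beside the sequence at their start sites. The letters searched on both strands were CCAAT, the CCAAT box, found in 37.4% of the 32851 promoters of this length, and TGACGC, found in 7.40%. A CCAAT box was found in the windows of B2m, Tapbp, H2-K1, H2-D1, Tap1 and Psmb9, and TGACGC in those of H2-K1 and H2-D1. No match overlapped another, and a window without a match says only that these letters are absent there. Capitals mark the matches.
B2m, chr2:122147437-122147736, plus strand: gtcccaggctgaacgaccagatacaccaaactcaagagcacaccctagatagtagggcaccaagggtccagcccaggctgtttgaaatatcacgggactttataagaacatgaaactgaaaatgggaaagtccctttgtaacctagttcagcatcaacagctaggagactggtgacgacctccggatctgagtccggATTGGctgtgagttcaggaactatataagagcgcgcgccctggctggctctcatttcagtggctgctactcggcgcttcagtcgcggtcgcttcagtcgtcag
H2-D1, chr17:35262844-35263143, plus strand: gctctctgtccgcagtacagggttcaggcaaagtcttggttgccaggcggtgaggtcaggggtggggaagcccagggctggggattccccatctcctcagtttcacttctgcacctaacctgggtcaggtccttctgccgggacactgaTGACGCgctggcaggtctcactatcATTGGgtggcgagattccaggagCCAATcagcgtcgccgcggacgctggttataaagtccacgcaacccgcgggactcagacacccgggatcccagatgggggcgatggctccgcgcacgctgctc

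Tap1 and Psmb9 are divergent neighbors whose RefSeq start sites lie 226 bases apart, and their windows share 275 bases. The gene bounds given with each member below come from another annotation, GENCODE, in which Tap1 and Psmb9 overlap on opposite strands. The Tap1 window is printed because it serves both genes, and its CCAAT box lies inside both windows.
Tap1, chr17:34187306-34187605, plus strand: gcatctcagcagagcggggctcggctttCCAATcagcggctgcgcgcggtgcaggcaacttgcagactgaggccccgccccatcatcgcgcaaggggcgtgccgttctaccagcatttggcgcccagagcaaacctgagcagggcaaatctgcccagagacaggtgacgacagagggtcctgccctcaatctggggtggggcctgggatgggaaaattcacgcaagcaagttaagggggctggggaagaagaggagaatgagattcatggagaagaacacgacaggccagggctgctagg

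Before the members, the libraries were examined. After filtering, 6546 cells with 58068183 UMIs (unique molecular identifiers, each standing for 1 captured transcript) remained in the library labelled oil and 7073 cells with 59503327 UMIs in the library labelled tamoxifen, with medians of 8575.5 and 8023 UMIs per cell and 15 shared barcodes. Usp18 was higher, not lower, in the library labelled Usp18+/Δ. It was at 5.68 CPM (UMIs per 1000000) with oil and 24.1 CPM with tamoxifen, a log2 ratio of 2.08 (95% interval 1.91 to 2.26). The counts are per gene, so the floxed and the other allele cannot be told apart, and the cause was not tested. Isg15, the reference interferon gene, was at 20.9 and 116 CPM. Markers of the sorted progenitors were summed at 1073 and 1051 CPM, with 6 of the 7 found in the tamoxifen library and Mpo at 0. Macrophage markers reached at least 3 UMIs in 10 and 40 cells, and neutrophil markers did so in 0 cells and in 1 cell, which held 1471 UMIs of them. B, T, NK, dendritic and endothelial markers reached 3 UMIs in at most 2 cells of a library. Erythroid markers, mainly hemoglobin, and mast cell or basophil markers were present in most cells and are given beside the results that they move with. The stress-response genes Hspa1a and Hspa1b, named after their values were seen, were lower with tamoxifen by 2.91 and 2.13 on the log2 scale.

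ISG-high cells were defined from 39 interferon-stimulated genes that include neither a member nor Usp18. After each cell was thinned to 3000 UMIs, a cell with more than 9 UMIs of this list, the 99th percentile of the oil library, was called ISG-high. This held for 57 of 6090 cells (0.936%) with oil, a share set by the threshold itself. With tamoxifen it held for 872 of 6723 cells (13.0%, 12.2 to 13.8). A ratio of these shares therefore sets the tamoxifen library against a share fixed in the oil library. The call is a range and not a cell type, since 25 and 198 cells had exactly 9 UMIs of the list and 17 and 169 had 10. ISG-high cells were shallower, with a median of 5779 against 8905 UMIs in the oil library and 6620 against 8495 in the tamoxifen library. The 456 and 350 cells under 3000 UMIs were left out of the ISG-high and other classes, the ISG bins, the phases and the detection at 3000 UMIs.

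First, the members were compared between libraries. As a group they rose little: their summed level was 1374 CPM with oil and 1611 CPM with tamoxifen, a 1.17-fold difference (log2 ratio 0.23, 0.22 to 0.24). Of the 9 members with a mean of at least 5 CPM, 0 were at least 1.5-fold higher, where 1.17% of the 8879 genes at this level were. The interval of the log2 ratio lay above 0 for 8 of 9 members, all but Psmb9, against 22.6% of all genes. An interval narrows with the number of UMIs, and the share over all genes was not matched for level, here or below. The median log2 ratio was 0.15 over the 9 members and 0.0074 over all genes. The count of 0 became 1 (B2m, at a log2 ratio of 1.03) with at most 5% mitochondrial UMIs and 2 (B2m and Tap1) in G1 cells. B2m, Tapbp and Tap1 led, while both heavy chains and the 3 immunoproteasome subunits differed by less than 1.2-fold. In bulk sums of this kind more cells with high expression and more transcripts per cell cannot be told apart, so the members were also compared within cell classes.

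**Figure D1:**
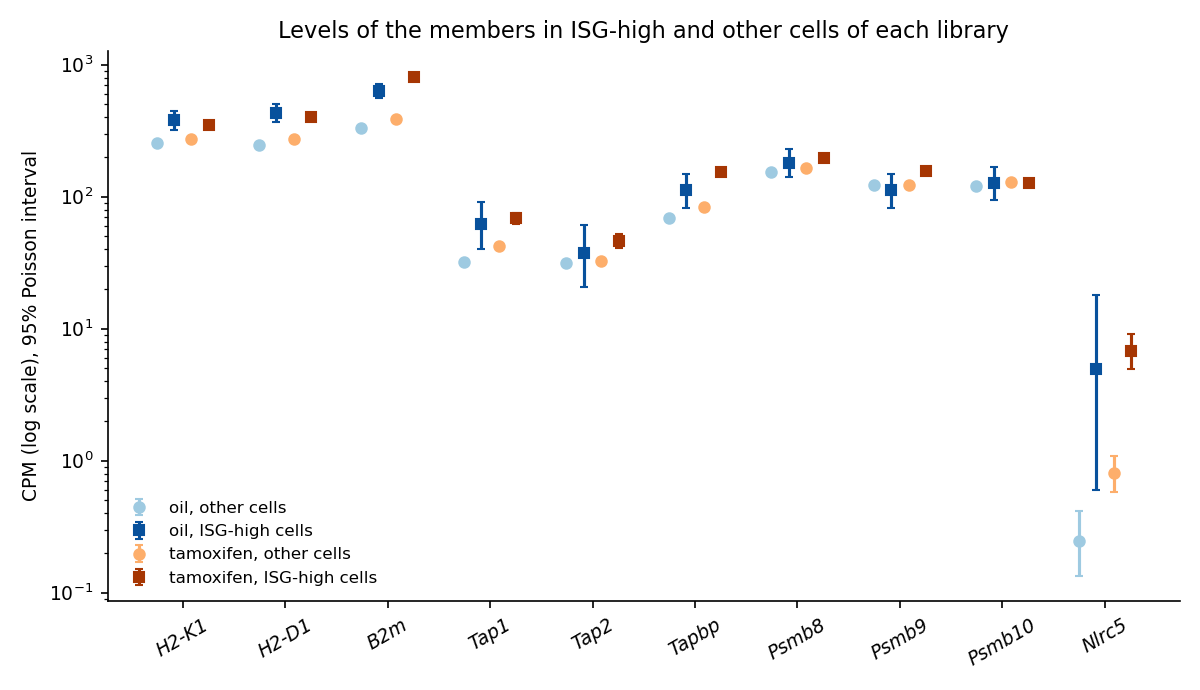
Level of each member in CPM (log axis) in the other cells (circles) and ISG-high cells (squares) of the libraries labelled oil (blue) and tamoxifen (orange), with 95% Poisson intervals. B2m went from 333 CPM in other cells with oil to 803 CPM in ISG-high cells with tamoxifen, whereas Psmb10 stayed between 121 and 130 CPM in all 4 groups of cells.

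The heavy chains come first by role. H2-K1 (ENSMUSG00000061232, chromosome 17, 33996017 to 34000347, minus strand) was at 258 CPM (253 to 262) with oil and 285 CPM (281 to 289) with tamoxifen, a log2 ratio of 0.15 (0.11 to 0.18). Within the tamoxifen library it was at 351 CPM in ISG-high cells and 275 CPM in other cells (log2 ratio 0.35, 0.29 to 0.42). Within the oil library these levels were 378 and 256 CPM (0.56, 0.32 to 0.79). The ratio with oil rests on 57 ISG-high cells and was 0.070 (-0.61 to 0.67) in S cells, of which 9 were ISG-high, and 0.22 (0.092 to 0.35) with the threshold at the 95th percentile. The levels of H2-K1 in the ISG-high cells of both libraries overlapped in their intervals.

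H2-D1 (ENSMUSG00000073411, chromosome 17, 35262730 to 35267499, plus strand), the other classical heavy chain, went from 250 CPM (246 to 254) with oil to 289 CPM (285 to 293) with tamoxifen, a log2 ratio of 0.21 (0.18 to 0.24). Its ISG-high cells were at 401 CPM (385 to 416) with tamoxifen and 433 CPM (371 to 502) with oil. The other cells were at 273 and 247 CPM, respectively, so that ISG-high cells stood 0.56 (0.49 to 0.62) and 0.81 (0.58 to 1.02) higher on the log2 scale. Neither heavy chain was higher in the ISG-high cells of the tamoxifen library than in those of the oil library, with log2 ratios of -0.11 (-0.34 to 0.14) for H2-K1 and -0.11 (-0.33 to 0.12) for H2-D1. Heavy-chain genes are near-identical over long stretches and Cell Ranger discards reads that match several genes, so both levels are minimum estimates. Summed with the listed Q, T and M genes, which does not recover such reads, heavy chains had a log2 ratio of 0.20 (0.18 to 0.22) between libraries and 0.60 (0.56 to 0.63) between ISG-high and other cells with tamoxifen.

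B2m (ENSMUSG00000060802, chromosome 2, 122147686 to 122153083, plus strand) was the member with the most UMIs and showed the clearest order over the groups of cells. It was at 336 CPM (331 to 341) with oil and 442 CPM (437 to 448) with tamoxifen, a log2 ratio of 0.40 (0.37 to 0.42). It rose from 333 CPM (328 to 338) in other cells with oil to 389 CPM (383 to 394) in other cells with tamoxifen, 632 CPM (557 to 715) in ISG-high cells with oil and 803 CPM (781 to 825) in ISG-high cells with tamoxifen. With all phases together, no 2 neighbors in this order had overlapping intervals, but within phases some did. In S cells ISG-high cells were at 598 CPM (441 to 793) with oil and 530 CPM (487 to 575) with tamoxifen. In G2M cells these intervals overlapped too (448 to 711 and 574 to 643), and the oil values rest on 9 and 12 cells. ISG-high cells exceeded other cells 2.07-fold with tamoxifen (log2 ratio 1.05, 1.0 to 1.09) and 1.90-fold with oil (0.92, 0.74 to 1.10). B2m ranked 113 of 8879 genes from the top in the first of these comparisons and 208 between the libraries.

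Of the genes of peptide transport and loading, Tap1 and Tapbp rose and Tap2 much less. Tap1 (ENSMUSG00000037321, chromosome 17, 34187553 to 34197225, plus strand), a subunit of the peptide transporter, was at 31.9 CPM (30.5 to 33.4) with oil and 45.0 CPM (43.4 to 46.8) with tamoxifen. Its log2 ratio of 0.50 (0.41 to 0.58) was the largest of the 9 members and ranked 134 of 8879 genes. ISG-high cells were at 68.6 against 42.1 CPM with tamoxifen (0.70, 0.55 to 0.85) and at 62.2 against 31.8 CPM with oil (0.97, 0.34 to 1.54). Tap1 was also, of the 9 members, the one that differed most among other cells, by 0.41 (0.32 to 0.50), although this became -0.11 (-0.46 to 0.24) when only cells with at most 5% mitochondrial UMIs were used.

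Tap2 (ENSMUSG00000024339, chromosome 17, 34203527 to 34216321, plus strand), the second transporter subunit, was at 31.7 CPM (30.2 to 33.2) with oil and 34.1 CPM (32.6 to 35.6) with tamoxifen, a log2 ratio of 0.11 (0.015 to 0.20). Both transporter genes were thus at about the same level in UMIs in the oil library and apart in the tamoxifen library. In the ISG-high cells of the tamoxifen library Tap2 was at 46.4 CPM against 32.5 CPM in other cells (0.51, 0.33 to 0.69). In G2M cells alone this ratio was -0.022 (-0.43 to 0.36). Only 15 UMIs of Tap2 came from ISG-high cells with oil, where the log2 ratio over other cells was 0.24 (-0.60 to 0.97) and the depth was too low to show a difference.

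Tapbp (ENSMUSG00000024308, chromosome 17, 33915899 to 33929292, plus strand), which encodes tapasin, went from 68.9 CPM (66.8 to 71.1) to 91.3 CPM (88.8 to 93.7), a log2 ratio of 0.41 (0.35 to 0.46). Its levels in ISG-high and other cells were 154 and 83.3 CPM with tamoxifen (0.88, 0.78 to 0.98) and 112 and 68.6 CPM with oil (0.71, 0.25 to 1.13). Of the 9 members with a mean of at least 5 CPM, Tapbp was second to B2m in the first of these comparisons, at rank 175 of 8879. The annotated Tapbp gene overlaps Zbtb22 on the same strand, so that reads matching exons of both genes would not be counted for either.

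Summed by role, the immunoproteasome subunits had the smallest ratios between libraries and between ISG-high and other cells with tamoxifen. Psmb8 (ENSMUSG00000024338, chromosome 17, 34197721 to 34201454, plus strand) was at 154 CPM (151 to 157) with oil and 167 CPM (164 to 171) with tamoxifen (log2 ratio 0.12, 0.079 to 0.16). Psmb9 (ENSMUSG00000096727, chromosome 17, 34181987 to 34187764, minus strand) was at 123 CPM (120 to 126) and 127 CPM (124 to 130), and its interval included 0 (0.042, -0.0045 to 0.089). Psmb10 (ENSMUSG00000031897, chromosome 8, 105935735 to 105938444, minus strand) was at 121 CPM (119 to 124) and 129 CPM (126 to 132), with a log2 ratio of 0.088 (0.041 to 0.13). Together the 3 subunits differed 1.06-fold between libraries, whereas Tap1, Tap2 and Tapbp together differed 1.29-fold.

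Within the tamoxifen library the subunits did not move alike. ISG-high cells had more Psmb9 (158 against 123 CPM, log2 ratio 0.36, 0.26 to 0.46) and more Psmb8 (196 against 164 CPM, 0.25, 0.17 to 0.34) than other cells. Psmb10 was at 128 and 130 CPM, with a log2 ratio of -0.021 (-0.13 to 0.085). In the oil library the intervals of all 3 ratios included 0, from 45 to 73 UMIs in ISG-high cells, and the difference between libraries in these ratios was not tested.

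Tap1 and Psmb9, which share the promoter region printed above, differed in both comparisons. Between libraries Tap1 was 1.41-fold and Psmb9 1.03-fold higher, and among other cells their log2 ratios were 0.41 (0.32 to 0.50) and -0.0045 (-0.053 to 0.044). In the ISG-high cells of the tamoxifen library both were higher than in other cells, by 0.70 and 0.36. At 3000 UMIs per cell, 283 of 6723 cells with tamoxifen had a UMI of both genes (4.21%), against 193 of 6090 with oil (3.17%).

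Nlrc5 (ENSMUSG00000074151, chromosome 8, 94434356 to 94527272, plus strand), the class I transactivator, was rare and had the largest ratio of all members. It had 17 UMIs in 16 cells with oil (0.293 CPM, 0.171 to 0.469) and 85 UMIs in 79 cells with tamoxifen (1.43 CPM, 1.14 to 1.77), a log2 ratio of 2.29 (1.52 to 3.13). With tamoxifen, the 872 ISG-high cells held 43 of these UMIs (6.83 CPM) and the 5851 other cells 42 (0.801 CPM), a log2 ratio of 3.09 (2.44 to 3.74). Among other cells alone it was 1.70 (0.80 to 2.69) higher than with oil, from 42 and 14 UMIs. Both UMIs in ISG-high cells of the oil library came from 1 cell (log2 ratio 4.34, 1.16 to 6.46), and no weight is put on them. Nlrc5 lay under the limit of 5 CPM and is in none of the counts of members by fold or interval.

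**Figure D2:**
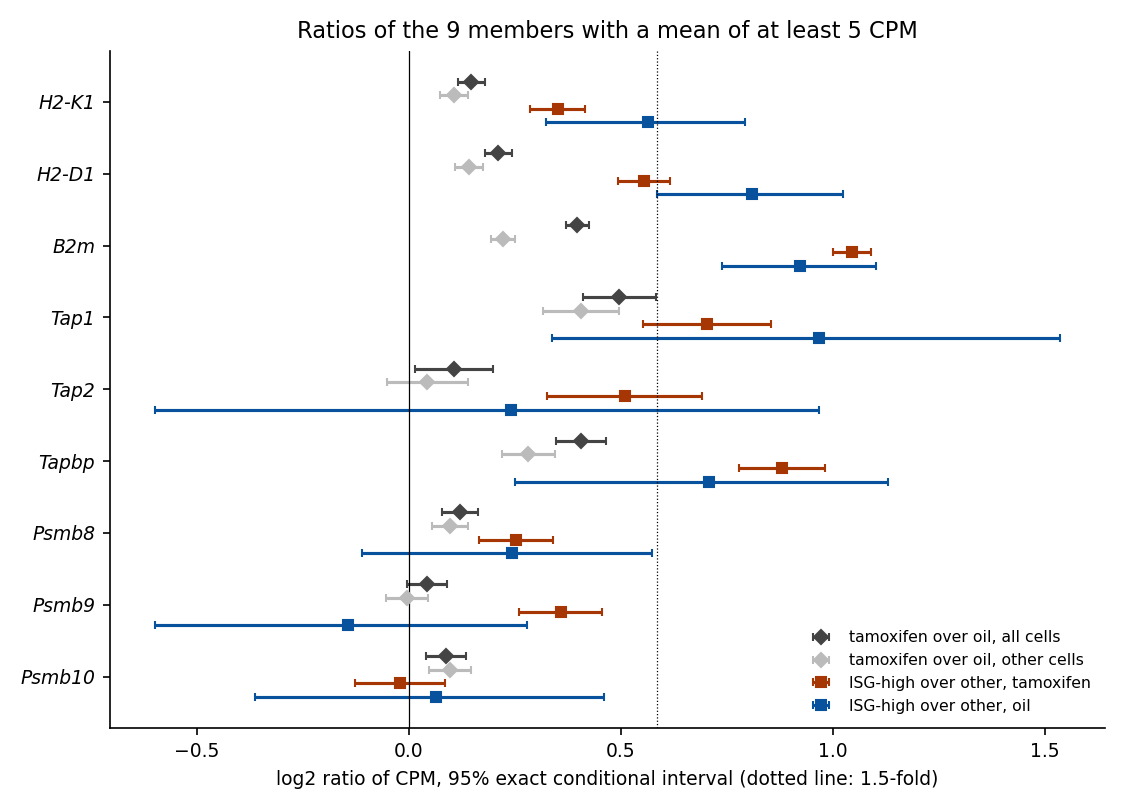
Log2 ratios of CPM for the 9 members with a mean of at least 5 CPM, with 95% exact conditional intervals. Diamonds compare the library labelled tamoxifen with the library labelled oil, over all cells (dark) or other cells (light), and squares compare ISG-high with other cells in each library. The squares of B2m, Tap1 and Tapbp in both libraries, and that of H2-D1 in the library labelled oil, lie to the right of the dotted 1.5-fold line, and no diamond does.

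Next, ISG-high cells were compared with other cells over the whole list. With tamoxifen the summed level of the members was 2312 CPM in ISG-high and 1513 CPM in other cells, a 1.53-fold difference (log2 ratio 0.61, 0.59 to 0.64). With oil it was 2080 and 1367 CPM, or 1.52-fold (0.61, 0.51 to 0.70). In the tamoxifen library 3 of 9 members (B2m, Tap1 and Tapbp) were at least 1.5-fold higher in ISG-high cells, against 4.72% of all genes. In the oil library 4 of 9 were (the same 3 and H2-D1), against 12.8% of all genes, and this rests on 57 cells. The count with oil was 2 in G1 cells and 0 when the threshold was set at the 95th percentile. With tamoxifen Tap1 did not reach 1.5-fold in G1 cells (71.6 against 49.2 CPM), nor did B2m in S cells (530 against 368 CPM). The interval lay above 0 for 8 of 9 members with tamoxifen and 5 of 9 with oil, against 22.9% and 8.99% of all genes. Medians over the members were 0.51 and 0.56, beside -0.015 and -0.032 over all genes.

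ISG-high cells also differed from other cells in other RNA. Of the 7 listed erythroid markers 6 were matched by symbol, and all 6 were found. They were summed at 11883 against 3128 CPM with tamoxifen and 25438 against 3824 CPM with oil. Mast cell or basophil markers were summed at 2000 against 1112 CPM and 3027 against 1239 CPM, with Prss34 at 0 in ISG-high cells with oil. Among cells with at most 5 hemoglobin UMIs at 3000 UMIs, a limit set after seeing the data, the members were as far apart, by 0.60 with tamoxifen and 0.60 with oil. Macrophage markers reached 3 UMIs in 9 of the 872 ISG-high cells with tamoxifen, and all 9 of these markers were at 0 in ISG-high cells with oil. Without cells that had 3 UMIs of another lineage, the log2 ratio with tamoxifen was 0.61.

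A class cut from a score hides how the members change along it, so cells were also binned by their ISG UMIs at 3000 UMIs. From the 903 cells with 0 to 1 ISG UMIs to the 154 cells with over 20, B2m rose in the tamoxifen library from 324 CPM (312 to 336) to 1195 CPM (1128 to 1264), 3.69-fold. Tapbp rose 3.29-fold, from 70.7 to 232 CPM, and Tap1 3.05-fold, from 38.6 to 118 CPM. H2-D1 and H2-K1 rose 2.18-fold and 1.80-fold. The remaining members rose less, by 1.63-fold for Psmb9, 1.60-fold for Psmb8, 1.51-fold for Tap2 and 1.36-fold for Psmb10, whose intervals all lay above 0. Nlrc5 went from 0.473 to 24.7 CPM. B2m, Tapbp, Tap1, H2-D1, H2-K1 and Psmb8 had a higher level in each bin than in the bin before it, while Psmb9 and Psmb10 were flat or lower up to 10 ISG UMIs and Psmb10 was higher only in the last bin.

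**Figure D3:**
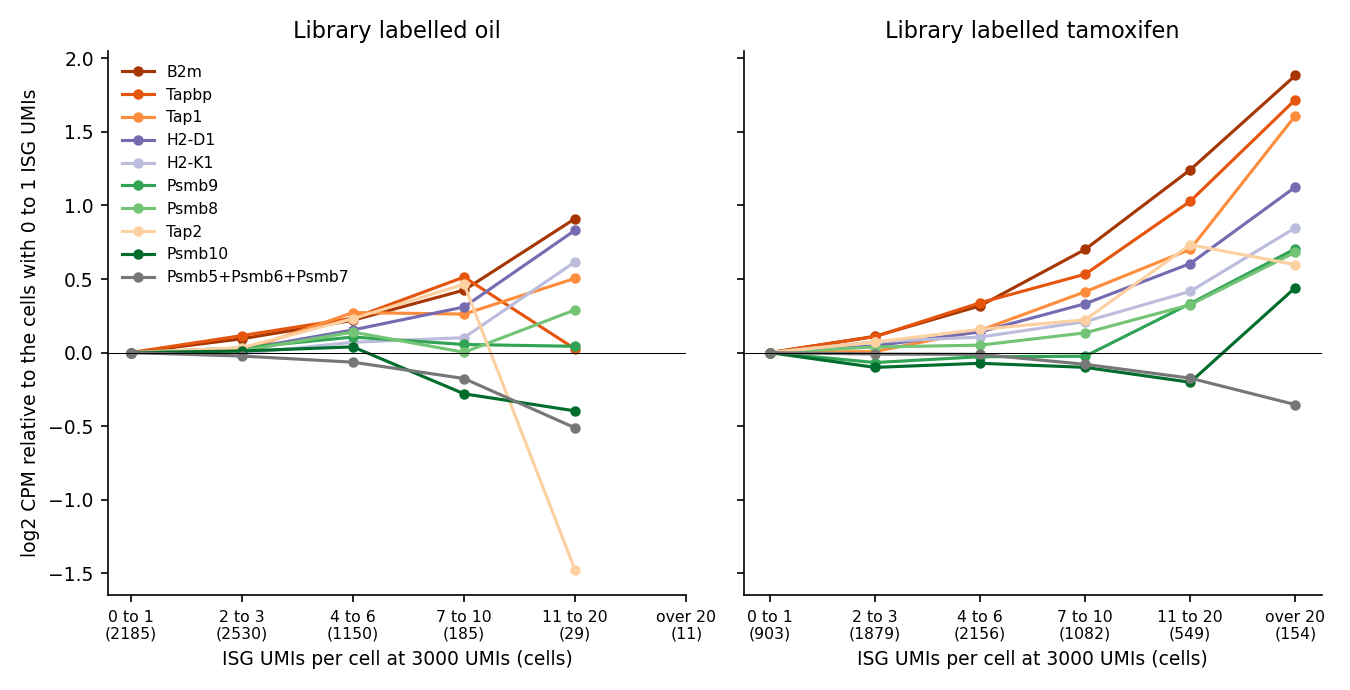
Log2 CPM of the 9 members relative to cells with 0 to 1 ISG UMIs, by bins of ISG UMIs per cell (number of cells in brackets), for the libraries labelled oil (left) and tamoxifen (right). The grey line is the sum of the constitutive subunits Psmb5, Psmb6 and Psmb7, the bin of 11 cells with oil is not drawn, and the bin of 29 cells with oil rests on few UMIs. With tamoxifen B2m reached 1.88, Tapbp 1.72 and Tap1 1.61 in the last bin, and the constitutive subunits fell.

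The same bins were compared between libraries, although the ISG level within a bin was not equal: the mean was 0.659 UMIs with oil and 0.724 with tamoxifen in the lowest bin, 7.80 and 8.12 at 7 to 10, 12.8 and 14.1 at 11 to 20, and 24.9 and 32.9 above 20. In cells with 0 to 1 ISG UMIs, the members summed to 1323 CPM with oil and 1393 CPM with tamoxifen (log2 ratio 0.075, 0.044 to 0.11). Tap1 was still higher with tamoxifen in this bin (0.34, 0.14 to 0.53) and so were Psmb10 (0.17, 0.071 to 0.27) and Tapbp (0.15, 0.0075 to 0.29). B2m was not distinguishable there (0.049, -0.016 to 0.11). From 2 ISG UMIs upward B2m was higher with tamoxifen in every bin, by 0.065 at 2 to 3, 0.15 at 4 to 6, 0.33 at 7 to 10, 0.38 at 11 to 20 and 0.78 above 20, the last against only 11 cells with oil.

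ISG-high cells were then left out. Among other cells the members summed to 1367 CPM with oil and 1513 CPM with tamoxifen, a log2 ratio of 0.15 (0.13 to 0.16), with 0 of 9 at least 1.5-fold higher against 0.777% of all genes. The interval lay above 0 for 7 of 9 members, all but Tap2 and Psmb9, against 20.8% of all genes. Of the UMIs in the 6723 cells of at least 3000 UMIs in the tamoxifen library, ISG-high cells held 10.7% over all genes and 15.5% over the members, from 10.6% for Psmb10 to 19.9% for B2m and 50.6% for Nlrc5. A difference between libraries was therefore present outside the ISG-high cells too. Compared with each other, the ISG-high cells of both libraries differed by 0.15 (0.052 to 0.26) in the summed members. Here 0 of 9 members were 1.5-fold higher, against 13.7% of all genes. Intervals above 0 were found for 3 of 9 members, B2m (0.35), Tapbp (0.46) and Psmb9 (0.50), against 3.37% of all genes.

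The subunits that the immunoproteasome replaces went the other way. Psmb5, Psmb6 and Psmb7 were lower with tamoxifen by 0.058, 0.044 and 0.084 on the log2 scale, and the intervals of all 3 lay below 0. In ISG-high cells with tamoxifen they stood 0.26, 0.15 and 0.11 below other cells. Of the 11 other subunits of the core proteasome, 0 had an interval above 0 and 6 had one below 0 between libraries, against 19.5% of all genes. In ISG-high cells with tamoxifen 7 of the 11 had one below 0, against 26.9%. The shift was small in each case and no subunit passed 1.5-fold.

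UMIs of each immuno and constitutive pair were therefore set against each other. Psmb8, paired with Psmb5, made up 38.7% (38.1 to 39.3) of the pair's UMIs with oil and 41.7% (41.1 to 42.3) with tamoxifen. Within the tamoxifen library its share was 40.7% in other cells and 49.5% (47.6 to 51.5) in ISG-high cells. Psmb9, paired with Psmb6, made up 36.1% with oil and 37.5% with tamoxifen, and 36.4% and 44.9% (42.9 to 47.0) in other and ISG-high cells. For Psmb10 and Psmb7 the share was 47.4% with oil and 50.4% with tamoxifen, and 50.2% and 51.8% (49.3 to 54.3) by class. With tamoxifen, ISG-high cells thus had a larger immuno share for Psmb8 and Psmb9, while for Psmb10 the intervals of both classes overlapped. With oil the order was another: the share in other and ISG-high cells was 38.6% and 44.8% for Psmb8, 36.1% and 37.2% for Psmb9 and 47.4% and 57.3% (46.4 to 67.7) for Psmb10, and the intervals of the classes overlapped for all 3. These are shares of transcripts, and capture can differ between genes.

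**Figure D4:**
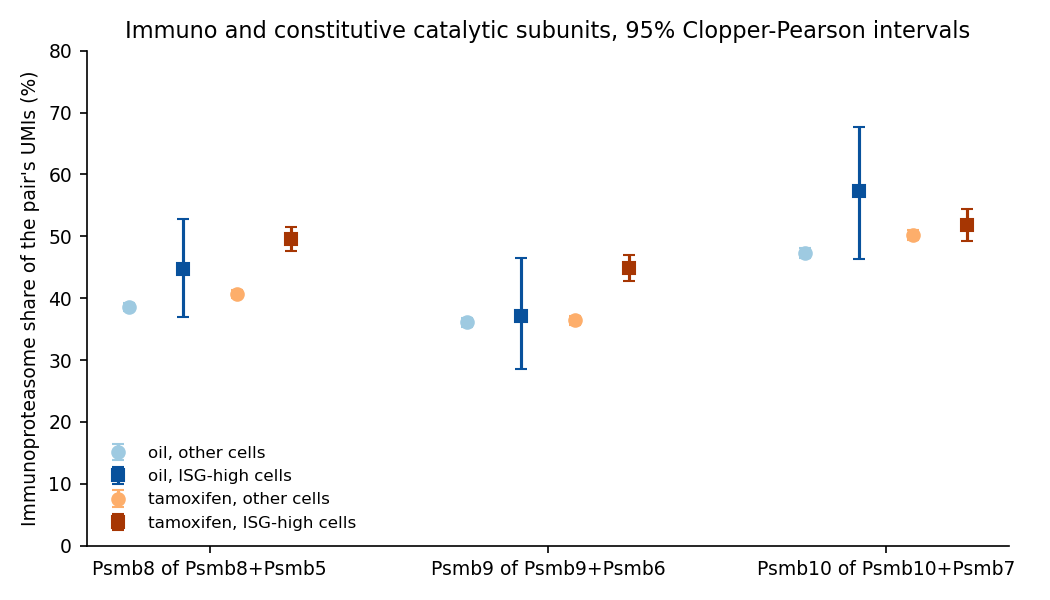
Share of UMIs from the immunoproteasome subunit in each pair of catalytic subunits (percent), with 95% Clopper-Pearson intervals, in other cells (circles) and ISG-high cells (squares) of the libraries labelled oil (blue) and tamoxifen (orange). With tamoxifen the share rose from 40.7% to 49.5% for Psmb8 and from 36.4% to 44.9% for Psmb9, and ISG-high cells with oil had wide intervals.

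Detection per cell was compared at 3000 UMIs. The 9 members with a mean of at least 5 CPM, and Nlrc5, were found in a larger share of cells with tamoxifen, against 51.0% of all 8879 genes. The steps went from 31.07% to 31.13% for Psmb9, the smallest in percentage points, to 18.8% to 24.8% for Tapbp, the largest. B2m was found in 63.2% (61.9 to 64.4) of cells with oil and 68.9% (67.7 to 70.0) with tamoxifen, and in 86.1% (83.6 to 88.4) of ISG-high cells with tamoxifen. Tap1 UMIs were present in 9.85% (9.11 to 10.6) of cells with oil and 13.2% (12.4 to 14.1) with tamoxifen. The median cell had 3 of the 10 members in each library and 4 in the ISG-high cells of each. For Psmb9 the step lay within the intervals, and at 1500 UMIs or without thinning, which leaves depth unequal, it was found in a smaller share with tamoxifen, while the other 9 members kept their direction. No cell type that should lack these genes was present, so that no background share can be set beside these values.

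Cell cycle phase was called from S and G2M gene lists at 3000 UMIs per cell, and cells of 1 phase were compared. The genes of these lists were lower in ISG-high than in other cells with tamoxifen, at 2583 against 3872 CPM for the 42 S genes and 6906 against 9986 CPM for the 52 G2M genes, and Mki67, a proliferation marker, was at 299 against 529 CPM. With oil Mki67 was at 443 against 542 CPM. Of ISG-high cells 63.2% with oil and 63.6% with tamoxifen were called G1, against 27.0% of other cells in each library. Of the 9 members with a mean of at least 5 CPM, B2m had the widest range over the phases: among other cells it was at 419, 319 and 309 CPM in G1, S and G2M with oil and at 582, 368 and 330 CPM with tamoxifen. In G1 cells, B2m was 1.62-fold higher with tamoxifen (423 and 686 CPM, log2 ratio 0.70), against 0.16 in G2M. The members summed gave 0.34 in G1, 0.19 in S and 0.14 in G2M between libraries. ISG-high cells exceeded other cells with tamoxifen in each phase, by 0.52, 0.38 and 0.56. Psmb10 had another order over the phases, with 107, 133 and 122 CPM in G1, S and G2M among other cells with oil.

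**Figure D5:**
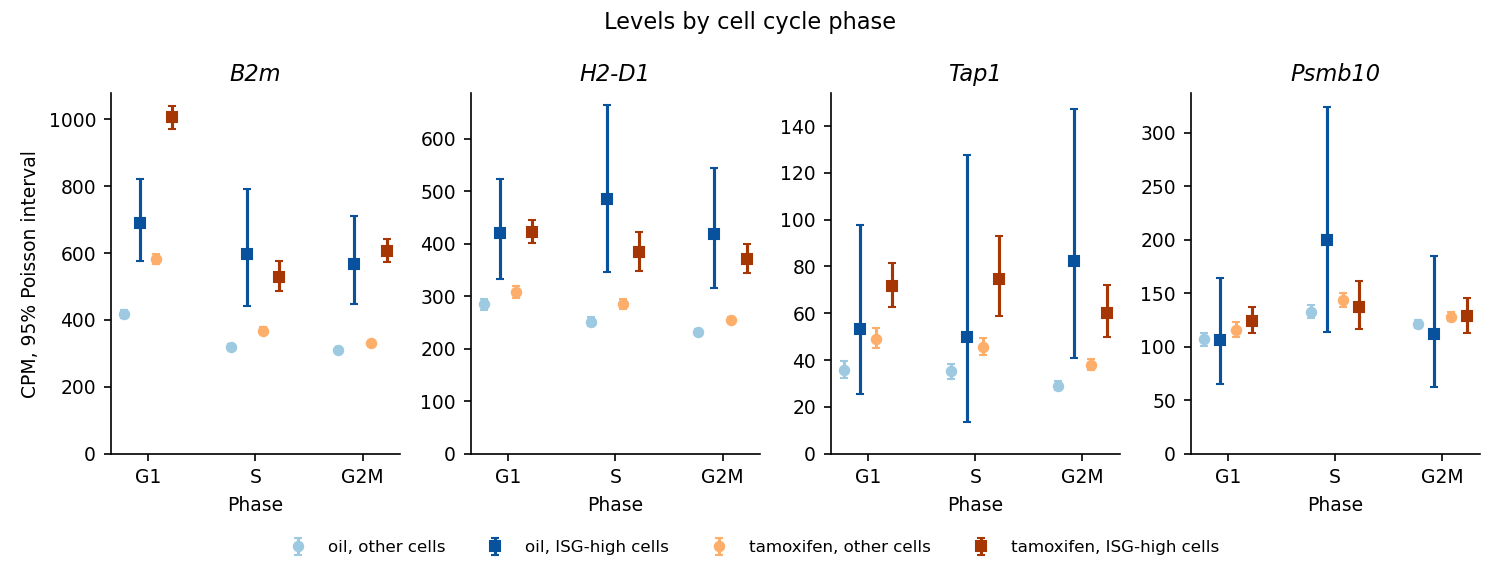
Level in CPM of B2m, H2-D1, Tap1 and Psmb10 by called cell cycle phase, in other cells (circles) and ISG-high cells (squares) of the libraries labelled oil (blue) and tamoxifen (orange), with 95% Poisson intervals. B2m was highest in G1, at 1006 CPM in ISG-high cells with tamoxifen, and Psmb10 showed no separation of the classes.

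Other genes of the pathway were taken from fixed lists. Of all genes 1.17% were at least 1.5-fold higher with tamoxifen and 4.72% in ISG-high cells of the tamoxifen library, and the counts in the lists stand beside these shares. Of 6 measured nonclassical or other heavy chains, 1 passed between libraries, H2-T24 (4.08 to 8.79 CPM, log2 ratio 1.11), and 5 passed in ISG-high cells. These 5 were H2-T24 (1.67), H2-T23 (1.07), H2-Q4 (1.02), Mr1 (0.71) and H2-T22 (0.68), and H2-M3 was at 0.19. H2-T23 encodes Qa-1, a ligand of NK cell receptors, and went from 94.7 to 116 CPM between libraries. Of 12 genes of peptide trimming and loading, such as Erap1 and Calr, 0 were 1.5-fold higher in either comparison and Thop1, a peptidase, was 1.5-fold lower in ISG-high cells (-0.71), as were 5.15% of all genes. Of 9 genes of the proteasome activator and its assembly 0 passed in either comparison. Psme1, a subunit of the interferon-responsive PA28 activator, had log2 ratios of 0.10 (0.069 to 0.14) and 0.28 (0.20 to 0.35), and its partner Psme2 of 0.056 and 0.12.

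Of 15 measured regulators of class I genes, 3 were at least 1.5-fold higher with tamoxifen, against 1.17% of all genes. Among them were Stat2 (10.7 to 17.7 CPM, log2 ratio 0.72) and Irf9 (38.0 to 57.2 CPM, 0.59), which act downstream of the type I interferon receptor. Intervals lay above 0 for 5 of the 15 and below 0 for 3, and the median log2 ratio was 8.4e-05. In ISG-high cells with tamoxifen 3 of the 15 passed, against 4.72% of all genes. Among them were Stat2 (1.64) and Rfx5 (0.75), a subunit of the complex that works with Nlrc5, while Irf9 was at 0.57. Here 7 intervals lay above 0 and 5 below, with a median of 0.16. Irf1, an activator of class I and immunoproteasome genes, was under the level limit, with 71 UMIs with oil and 139 with tamoxifen (0.93, 0.51 to 1.37). Of 4 measured interferon-inducible GTPases 3 passed between libraries (Igtp at 1.48, Irgm1 at 0.92 and Gbp7 at 0.59) and all 4 in ISG-high cells, against 1.17% and 4.72% of all genes.

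Class II genes were nearly absent. H2-Oa was the only 1 of 9 genes of this list above the level limit, at 18.6 and 20.2 CPM, and it was higher in ISG-high cells with tamoxifen (0.89, 0.67 to 1.11). Cd274, which encodes PD-L1, was at 7.59 and 10.6 CPM between libraries (0.49, 0.31 to 0.66) and at 24.3 against 8.39 CPM in ISG-high and other cells with tamoxifen (1.53, 1.26 to 1.80). It was the only gene of 5 measured checkpoint genes and NK ligands to pass 1.5-fold there, and 0 of 5 did between libraries.

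The region of chromosome 17 from Tapbp to H2-D1 (33915899 to 35267499) holds 7 of the members and 42 further genes whose mean reached 5 CPM. Of these 42, 0 were at least 1.5-fold higher with tamoxifen and 2 were lower, Hspa1a and Hspa1b, against 0.180% of all genes. Their median log2 ratio was 0.025, against 0.15 for the 7 members. In ISG-high cells with tamoxifen the medians were 0.0026 and 0.51, and of the 42 genes 1 was 1.5-fold higher, H2-Oa, against 4.72% of all genes, and 3 were lower, against 5.15%.

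Finally, genes were ranked by how closely their level followed that of the summed members over 30 groups of cells, defined by library, ISG bin and phase with at least 20 cells each. Among the 5984 genes whose mean reached 20 CPM, the members themselves ranked from 1 (H2-D1) and 3 (B2m) to 1261 (Tap2) and 1642 (Psmb10). Outside the members and the ISG list, the 4 closest were Samhd1 (r = 0.96), Ube2l6 (0.95), Gbp7 (0.94) and Ublcp1 (0.93). Ube2l6 encodes the conjugating enzyme for ISG15, and Samhd1 was at 50.5 CPM with oil and 77.6 CPM with tamoxifen. These r describe 30 groups that share libraries, depth and the ISG score, and carry no test. A member is itself part of the sum, with more weight the more UMIs it has. The ranks of the members are therefore partly set in advance.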

How the data were processed

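The deposited values are raw UMI counts per gene and cell barcode, which the authors made with Cell Ranger 3.0.2 per the file headers, from 10x 3′ V3 libraries against mm10. The submitters' processing notes also name Seurat. Cell Ranger counts UMIs on the sense strand and drops reads that match several genes. UMIs are not scaled by gene length, because each transcript is counted once.

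Barcodes under 500 genes or above 10% mitochondrial UMIs were dropped. Scrublet (scanpy 1.11.5) marked 0.189% and 0.149% of cells as doublets, under 0.5%, so the 5% of cells with the highest scores (340 and 333) were removed. UMIs were summed per library or class. CPM carry exact Poisson, shares Clopper-Pearson and ratios exact conditional 95% intervals, which cover counting error only. A count of 0 allows 3 UMIs, 0.0517 and 0.0504 CPM in the libraries labelled oil and tamoxifen. With 1 library per group no test was run. Functions were tested on simulated data.

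Members and lists were chosen with earlier results of these data known. Named genes were the members, up to 4 genes per list that were 1.5-fold apart, fixed partners, and the 5 closest in level, of which 1 is not reported here. Gene positions are from GENCODE vM21. Alternatives varied filters, scaling, phase, thinning and thresholds.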

Additional observations from a re-analysis of the deposited data

Results flagged for a closer look

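Members that went opposite ways in the libraries were looked at again. For Psmb9 the log2 ratio of ISG-high over other cells was 0.36 (0.26 to 0.46) with tamoxifen and -0.14 (-0.60 to 0.28) with oil, from 995 and 45 UMIs in ISG-high cells. For Psmb10 it was -0.021 (-0.13 to 0.085) and 0.064 (-0.36 to 0.46), from 806 and 51 UMIs. The difference between libraries was not tested in either case, and 3 of the 4 intervals include 0.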

How the results depend on the processing

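No paired analysis was possible because there is only 1 library on each side and nothing was tested. The summed members kept their direction under all alternatives, from 0.14 to 0.46 (log2) between libraries, 0.38 to 0.83 between ISG-high and other cells with tamoxifen, 0.27 to 0.75 with oil, and 0.11 to 0.25 among other cells. With at most 5% mitochondrial UMIs, which left 635 and 557 cells of at least 3000 UMIs and 4 ISG-high cells with oil, these 4 ratios were 0.46, 0.83, 0.75 and 0.25, with 1 member at least 1.5-fold higher between libraries and 1 among other cells, and the log2 ratio of ISG-high shares was 5.02, against 3.79. In this setting Tap1 among other cells was at -0.11. In G1 cells the 4 ratios were 0.34, 0.52, 0.41 and 0.21, with 2 members 1.5-fold higher between libraries and 2 in ISG-high cells with oil. For ISG-high cells with tamoxifen, Tap1 did not reach 1.5-fold in G1 cells, nor did B2m in S cells. S cells gave 0.19 between libraries, 0.38 in ISG-high cells with tamoxifen and 0.17 among other cells, and G2M cells gave 0.14, 0.56 and 0.11, with Tap2 at -0.022 in the ISG-high comparison. The mean of per-cell values gave 0.27 between libraries and 0.64 for ISG-high cells with tamoxifen, where median-of-ratios scaling gave 0.65 and calling by ISG share without thinning 0.68, with 5 members 1.5-fold higher. The 95th percentile as threshold, which admits more cells, gave 0.44 with 2 members 1.5-fold higher for tamoxifen, 0.27 with 0 members for oil, 0.11 among other cells and 2.85 for the shares. Among other cells, calling at 1500 UMIs gave 0.16 and the first 10 ISGs 0.17. Cells with at most 5 hemoglobin UMIs, chosen after seeing the data, gave 0.18 between libraries and 0.13 among other cells. At the lower of the planned fold limits, 3 members passed between libraries and 7 in ISG-high cells with tamoxifen. Of the other lists 7 genes passed between libraries, 13 with a mean of at least 1 CPM and 4 with at least 20 CPM, where other genes enter. The cause of these changes was not tested. Scaling shifted all genes by at most 0.037. Depth limits Nlrc5 and all ISG-high values with oil, and the difference between mice cannot be seen.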
